A study of Saccharomyces cerevisiae with 10 samples.

Results

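The genes described here are 10 genes of aromatic amino acid synthesis in the yeast Saccharomyces cerevisiae: ARO1, ARO2, ARO3, ARO4, ARO7, ARO8, TRP2, TRP3, TRP4 and TRP5. They were chosen by name from 5913 mRNA genes in an annotation of 6477 genes. For each, the intervals mapped as bound by protein on its own strand were collected from the gene and from its flanks, 100 nt upstream of the start codon and 150 nt downstream of the stop codon. The study used gPAR-CLIP, in which cells take up 4-thiouracil, UV light of long wavelength links this RNA covalently to bound protein, and RNA carried by biotinylated protein is sequenced. It had 10 libraries in 5 groups of 2 replicates, all from strain BY4742, labelled as wild type and as MATa, with the deletions ura3-delta-0, lys2-delta-0 and leu2-delta-0 and the allele his3-delta-1. The medium was synthetic and defined, 4-thiouracil was given at 200 µM, and the UV dose was 150 mJ/cm2 at 365 nm, applied 4 times. The groups were log-phase total RNA from either the light or the heavy part of a sucrose gradient, and polyadenylated (polyA) RNA from the light part after 2 h without glucose, after 2 h without nitrogen, and in log phase. Both replicates of a group share 1 deposited list of intervals, called clusters here.

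Yeast makes phenylalanine, tyrosine and tryptophan through the shikimate route. The isoenzymes Aro3 and Aro4 start it by condensing erythrose 4-phosphate with phosphoenolpyruvate, Aro1 carries out the middle steps in a single multifunctional chain, and Aro2 makes chorismate, the branch point. Aro7 turns chorismate into prephenate for phenylalanine and tyrosine, Aro8 is an aminotransferase that completes these amino acids, and Trp2, Trp3, Trp4 and Trp5 lead from chorismate to tryptophan. Most of these genes are known targets of Gcn4, the transcription factor of general amino acid control, and ARO7 is known as an exception.

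The genes lie on 6 chromosomes (R64 coordinates of the reading frames, each a single exon in the annotation). On chromosome IV, ARO1 (YDR127W) spans 704484 to 709250, ARO3 (YDR035W) 521816 to 522928 and TRP4 (YDR354W) 1184747 to 1185889, all on the plus strand. On chromosome VII, ARO2 (YGL148W, 226399 to 227529) and ARO8 (YGL202W, 116059 to 117561) lie on the plus strand and TRP5 (YGL026C, 446412 to 448535) on the minus strand. TRP2 (YER090W) spans 337949 to 339472 of chromosome V on the plus strand. ARO4 (YBR249C, chromosome II, 716882 to 717994), ARO7 (YPR060C, chromosome XVI, 674861 to 675631) and TRP3 (YKL211C, chromosome XI, 36699 to 38153) lie on the minus strand. The flanks stand in for untranslated regions, which were not taken from the annotation.

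The lists held 51574 clusters for light total RNA, 33345 for polyA RNA after glucose starvation, 38936 after nitrogen starvation and 61035 in log phase, with median widths of 13, 11, 11 and 10 nt. The heavy total RNA list held 115 clusters and none on the 10 genes. No score or read count is attached to a cluster, so depth is known only as list length. With 1 list per group there was no test between groups and no replicate check. Every 95% interval covers counting error only, and those given for a single gene carry no correction for the number of genes. More RNA and more protein per RNA would both raise the covered length, and the lists cannot tell these apart. Total RNA clusters held 16.4% G, against 6.81% in log-phase polyA RNA, and what this does to the comparison of both lists was not tested. As a check of the strain, the bodies of LEU2, LYS2 and URA3 held 0 clusters in every light list, while HIS3 held 10 in total RNA, 0 after glucose starvation, 1 after nitrogen starvation and 0 in log-phase polyA RNA. For all 406 clusters on the 10 genes, a window of 30 nt around the midpoint matched the genome at 1 place. Wider clusters were checked at their centre only, and for narrower ones the window includes neighbouring bases. ARO3 and ARO4 are 67.2% identical over 1090 aligned nucleotides and shared 0 stretches of 20 nt, so exact reads of at least 20 nt could be told apart. Whether shorter reads or reads with mismatches were kept apart was not tested.

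Some stretches were called in all 4 light lists. Overlapping clusters of the 4 light lists that reach into the 10 genes or their flanks were merged into 277 sites, of which 210 came from 1 list, 29 from 2, 20 from 3 and 18 from all 4. In 13 of these 18, at least 1 base was common to all 4 lists, and the common bases, 87 nt in all, were 44.8% T and 2.30% G. In 11 of the 13 the common part held no G, and in 0 of them did it lack a T, the base that 4-thiouracil labels. Every cluster of the 4 light lists holds a T, and taking only common bases shortens a site. On the 10 genes, clusters held 31.6% T in total RNA, 39.9% after glucose starvation, 34.4% after nitrogen starvation and 36.9% in log-phase polyA RNA. The sites below are 12 of the 13, from the R64 reference, written 5′ to 3′ on the gene's strand as DNA, with the common bases in capitals. They are shown because they were called in all growth conditions and both kinds of RNA. The 13th, a site of 42 nt after the ARO4 stop codon, was longer than 30 nt and is not printed.

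ARO1, chrIV:709273-709285, plus strand, 23 nt after the stop codon: ttataTTTTAcaa
ARO3, chrIV:523037-523048, plus strand, 109 nt after the stop codon: tGCCTTTTATAa
ARO4, chrII:716837-716855, minus strand, 27 nt after the stop codon: tacaTTCTTTCCtctacca
ARO4, chrII:717318-717338, minus strand, coding base 657: tcattctcACCATTTCATGgg
ARO4, chrII:717581-717608, minus strand, coding base 387: caACACTTTCAacatcaacaagggtttg
ARO7, chrXVI:674797-674810, minus strand, 51 nt after the stop codon: cATATATAAACaca
ARO8, chrVII:116811-116821, plus strand, coding base 753: ttatTTCTtac
TRP2, chrV:338454-338476, plus strand, coding base 506: ttcagagatttcaaaTCATTCAt
TRP2, chrV:338750-338762, plus strand, coding base 802: aaTATTTACAgac
TRP2, chrV:339056-339079, plus strand, coding base 1108: ttaactattcaAAAATtttctcat
TRP3, chrXI:37507-37535, minus strand, coding base 619: gaaaacaaatcatctccttcaaaTTctat
TRP5, chrVII:448336-448347, minus strand, coding base 189: tacaatTCAAtt

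Positions count from the first base of the start codon or from the first base after the stop codon to the 5′ end of the site. The 4-list sites were spread over 8 of the 10 genes. ARO4 had 5, ARO3, ARO8 and TRP2 had 3 each, and ARO1, ARO7, TRP3 and TRP5 had 1 each. ARO2, which held 1 cluster after glucose starvation, and TRP4, which held none there, had 0. Of the 18 sites, 10 lay in gene bodies, 5 downstream and 3 upstream of the reading frame.

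The genes differed in how much of each was bound, and their order differed between total and polyA RNA. Clusters covered 23.3% of ARO3 with its flanks in total RNA, 5.58% after glucose starvation, 9.24% after nitrogen starvation and 4.84% in log-phase polyA RNA. For its isoenzyme gene ARO4 the shares were 21.2%, 8.95%, 10.1% and 8.22% in the same 4 lists. Both genes of the entry step therefore lay near each other in total RNA, and ARO4 was the more covered in log-phase polyA RNA. ARO1, the longest of the 10 with 4767 nt, was covered over 21.4% in total RNA, 0.578% after glucose starvation, 0.737% after nitrogen starvation and 1.08% in log-phase polyA RNA. It was the least covered of the 10 in log-phase polyA RNA and the third most covered in total RNA. ARO2 had 13.1%, 3.11%, 1.96% and 1.67% in total, glucose, nitrogen and log-phase lists.

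On the branch to phenylalanine and tyrosine, ARO7 had the lowest share of the 10 in total RNA. It was covered over 4.11% in total RNA, 4.31% after glucose starvation, 4.11% after nitrogen starvation and 5.48% in log-phase polyA RNA, the narrowest range of the 10. These shares rest on 3, 4, 3 and 5 clusters in that order and are not scaled to list size. Per 100000 nt of list, ARO7 had 5.28, 11.0, 9.14 and 8.08 nt covered, so its scaled values were less even. ARO8 had 13.7%, 5.59%, 14.0% and 6.96%, and was the most covered of the 10 after nitrogen starvation. On the tryptophan branch, TRP2 had 18.2%, 2.93%, 3.95% and 3.38%. TRP3, whose product joins Trp2 in anthranilate synthase and also makes indole-3-glycerol phosphate, had 19.2%, 1.41%, 3.81% and 2.76%. TRP4, the phosphoribosyltransferase gene, had 18.8%, 0%, 4.81% and 3.02%. TRP5, tryptophan synthase, had 23.2%, 1.94%, 3.45% and 2.11%. The median mRNA gene was covered over 3.88% in total RNA, 2.29% after glucose starvation, 2.77% after nitrogen starvation and 4.21% in log-phase polyA RNA. All 10 genes lay above that median in total RNA, against 4 in log-phase polyA RNA (ARO3, ARO4, ARO7 and ARO8). With no spread between replicates, the order of genes with close shares cannot be told.

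**Figure D1:**
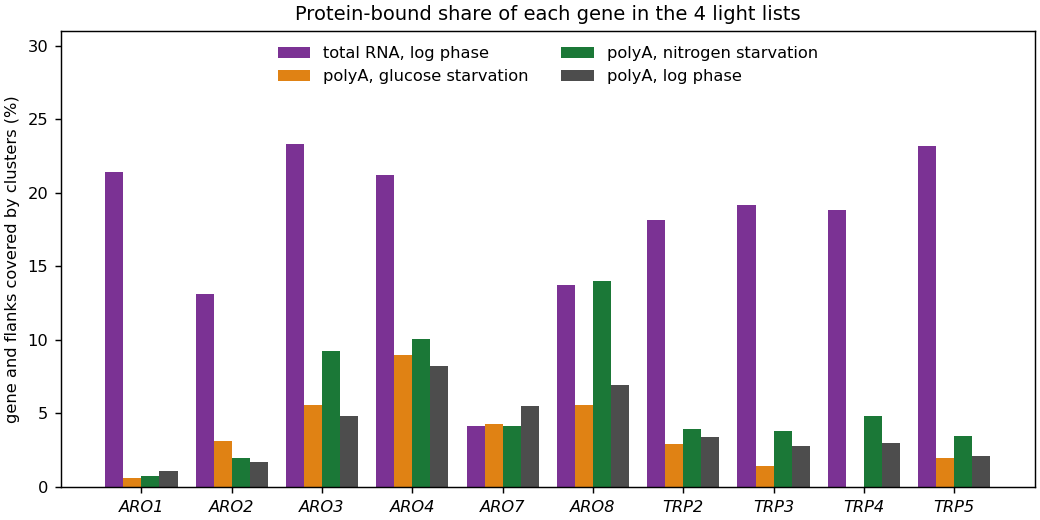
Share of each gene with its flanks covered by clusters (vertical axis, percent, starting at 0) in light total RNA, polyA RNA after glucose starvation, after nitrogen starvation and in log phase; each bar is 1 pooled list, with no replicate error. Bars of total RNA reach 13.1% to 23.3% for 9 genes, and ARO7 stays between 4.11% and 5.48% in all 4 lists.

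The light total RNA list was set against the log-phase polyA list. Of all clusters, 80.4% lay on mRNA genes with their flanks in total RNA and 65.2% in log-phase polyA RNA. What sets both lists apart was not tested. The 10 genes held far more clusters in total RNA. They carried 230 clusters there, 0.446% of the list (Wilson interval 0.392 to 0.507), against 59 or 0.0967% in polyA RNA (0.0750 to 0.125). Per list size this is a ratio of 4.61 (exact conditional binomial interval 3.45 to 6.25), and 3.64 (2.66 to 5.04) without ARO1, which alone held 64 of the 230. The log2 ratio of covered length, each length taken per 100000 nt of its list after 20 nt were added, had a median of 1.94 over the 10 genes and of -0.16 over 5636 mRNA genes. At least 2-fold higher were 8 of the 10, where 12.7% of mRNA genes were, and 0 were at least 2-fold lower, where 23.6% were. The ratio of cluster counts had an interval above 1 for the same 8 genes, and for 8.89% of mRNA genes.

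ARO1, which is longer than 98.3% of mRNA genes, had the highest ratio of the 10. It held 64 clusters over 1074 nt in total RNA and 5 over 54 nt in polyA RNA, for a count ratio of 15.1 (6.16 to 48.2) and a log2 ratio of covered length of 3.69. It was the fifth highest of the 5636 mRNA genes. TRP5 came next, with 35 clusters over 550 nt in total RNA, against 5 over 50 nt in polyA RNA, a count ratio of 8.28 (3.23 to 27.1) and a log2 ratio of 2.83. ARO2 held 12 clusters in total RNA and 2 in polyA RNA, with a count ratio of 7.10 (1.58 to 65.3). The entry enzymes differed less between the lists. ARO3 held 23 clusters in total RNA and 7 in polyA RNA (3.89; 1.62 to 10.7), and ARO4 18 and 8 (2.66; 1.10 to 7.08). The other tryptophan genes lay between, with 21 clusters in total RNA and 6 in polyA RNA for TRP2 (4.14; 1.62 to 12.5), 18 and 5 for TRP3 (4.26; 1.52 to 14.7), and 19 and 4 for TRP4 (5.62; 1.87 to 22.7). Neither ARO8 nor ARO7 reached 2-fold. ARO8 held 17 clusters in total RNA and 12 in polyA RNA (1.68; 0.755 to 3.85), and ARO7 held 3 and 5 (0.710; 0.110 to 3.65), so for ARO7 a difference in either direction lay within the counting error.

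**Figure D2:**
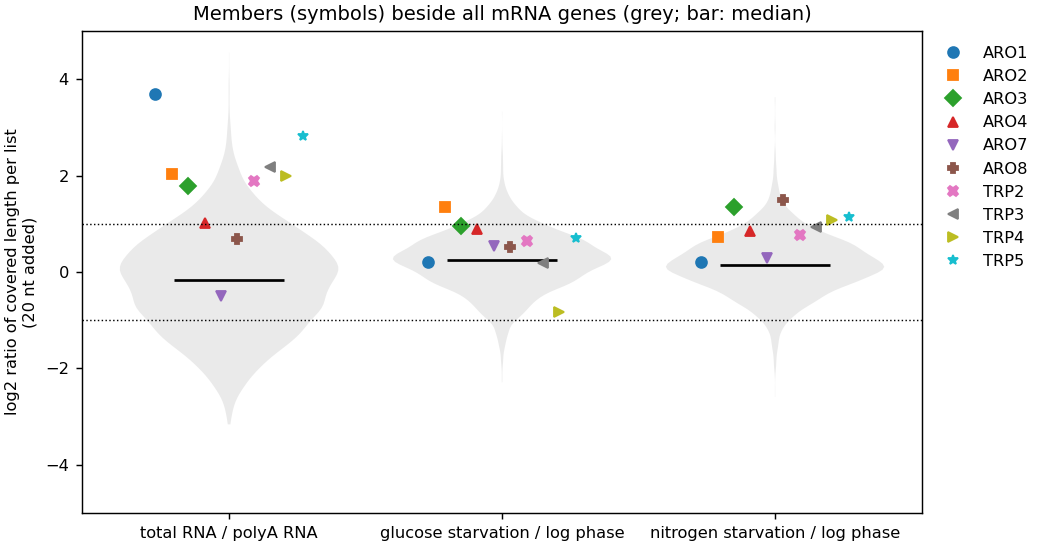
Log2 ratio of covered length per list (vertical axis, 20 nt added) for the 10 genes (symbols) beside the distribution over all mRNA genes (grey, black bar at the median) in the 3 comparisons; dotted lines mark 2-fold. ARO1 stands at 3.69 in total over polyA RNA, and all 10 genes lie above the median of 0.15 in nitrogen starvation over log phase.

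The clusters of total RNA were spread along ARO1. Divided into 10 equal parts from the start codon, its body held 5, 8, 4, 8, 5, 8, 5, 8, 3 and 7 clusters in total RNA, so 30 of 61 (49.2%; 37.1 to 61.4) lay in the first 5 parts. The median gap between neighbouring clusters was 45.5 nt and the longest uncovered stretch 240 nt. In polyA RNA the body held 4 clusters, and 1 more lay 24 nt after the stop codon. TRP5 had a similar spacing in total RNA, with 32 clusters in its body, a median gap of 41 nt and a longest uncovered stretch of 142 nt. In ARO7 the body held 2 clusters and the longest uncovered stretch was 418 nt of its 771 nt.

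**Figure D3:**
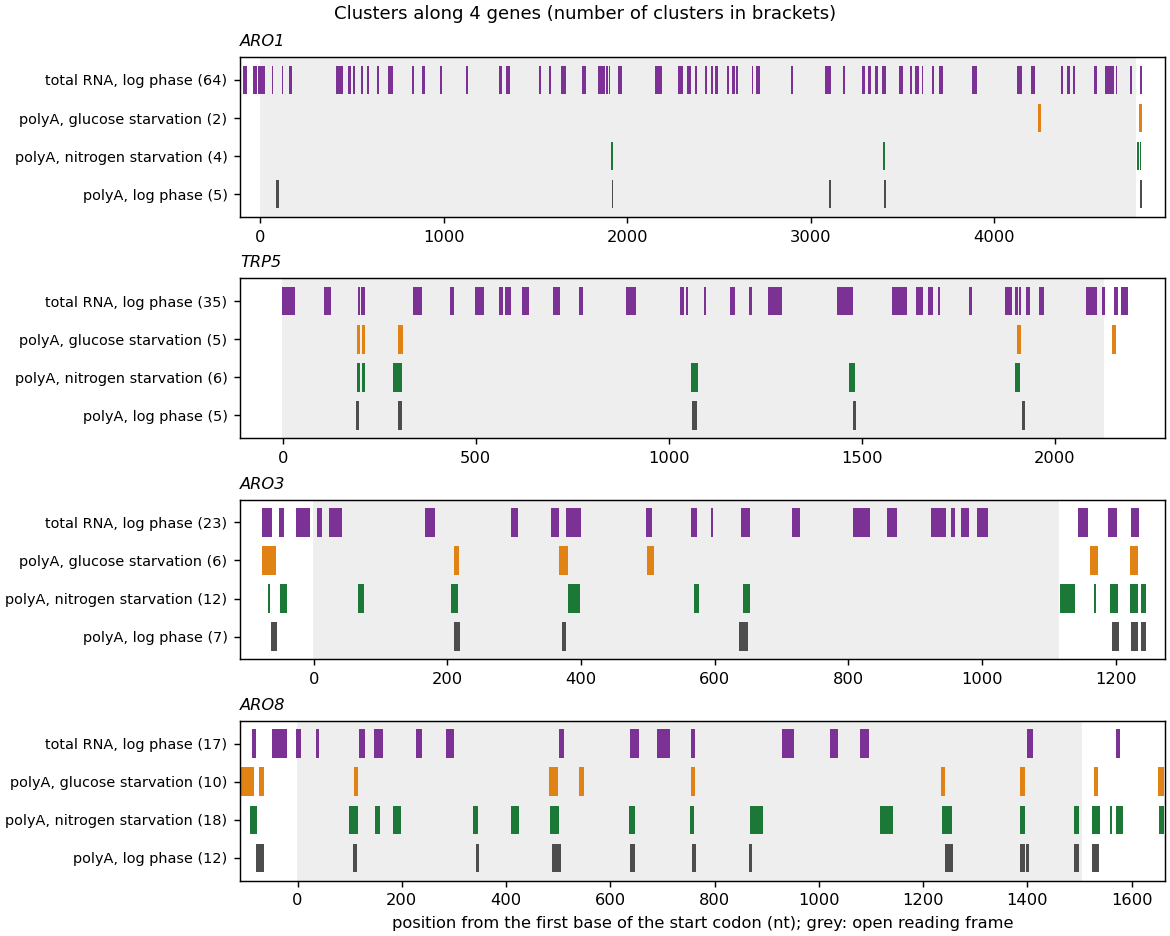
Position of every cluster along ARO1, TRP5, ARO3 and ARO8 (horizontal axis, nt from the first base of the start codon; grey marks the reading frame) in light total RNA and in polyA RNA after glucose starvation, after nitrogen starvation and in log phase, with cluster numbers in brackets. ARO1 holds 64 clusters spread along its length in total RNA, covering 21.4% of it, and 2, 4 and 5 in the polyA lists, while ARO8 holds 17, 10, 18 and 12.

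The bases in these clusters differed as well. The 5 log-phase polyA clusters of ARO1 are shown with each T in capitals, followed by its widest total RNA cluster, as an example of both kinds.

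ARO1 polyA, chrIV:704570-704584, plus strand: aaTTaaacaTTgTcc
ARO1 polyA, chrIV:706398-706406, plus strand: aTTccaaag
ARO1 polyA, chrIV:707582-707592, plus strand: cTcaaaTTTcT
ARO1 polyA, chrIV:707882-707889, plus strand: TaTcaTTT
ARO1 polyA, chrIV:709274-709284, plus strand: TaTaTTTTaca
ARO1 total RNA, chrIV:709087-709135, plus strand: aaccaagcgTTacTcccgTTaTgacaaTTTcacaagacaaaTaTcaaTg

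On the 10 genes, clusters held 19.5% G in total RNA and 6.33% in log-phase polyA RNA, where the gene bodies themselves hold 21.9%. Without any G were 28 of 230 clusters in total RNA (12.2%; 8.56 to 17.0) and 33 of 59 in polyA RNA (55.9%; 43.3 to 67.8). Over all mRNA genes these shares were 21.2% in total RNA and 53.7% in polyA RNA. The widest cluster of the 10 genes, 66 nt in total RNA, ran over the start codon of TRP3 (capitals) and is shown because no other cluster of the 10 genes was as long.

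TRP3 total RNA, chrXI:38094-38159, minus strand: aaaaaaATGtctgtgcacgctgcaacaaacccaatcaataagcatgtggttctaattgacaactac

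Few total RNA clusters lay where polyA clusters did. Of the 230, 27 shared at least 1 nt with a cluster of log-phase polyA RNA (11.7%; 8.19 to 16.5), and over all mRNA genes 30.9% did. Seen from the log-phase polyA list, 27 of the 59 polyA clusters overlapped one of total RNA (45.8%; 33.7 to 58.3), and over all mRNA genes 32.2% did. Merged into sites, 185 of the 277 were present in total RNA alone and 92 in at least 1 polyA list.

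In total RNA a larger share of clusters lay in the reading frame, over all mRNA genes and on the 10 genes. By their midpoints, 78.5% of clusters on all mRNA genes lay in gene bodies in total RNA and 67.6% in log-phase polyA RNA. On the 10 genes 193 of 230 did in total RNA (83.9%, interval 78.6 to 88.1). In log-phase polyA RNA 44 of 59 did (74.6%, interval 62.2 to 83.9), so both intervals overlap. The count ratio per list was 5.19 (3.73 to 7.38) in gene bodies, 3.75 (1.44 to 11.5) in upstream flanks and 2.37 (1.01 to 5.98) in downstream flanks. Over all mRNA genes it was 1.43 in bodies, 1.24 upstream and 0.678 downstream. The order of the 3 regions was thus the same for the 10 genes and for mRNA genes at large, and the intervals of the 10 genes overlap one another.

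**Figure D4:**
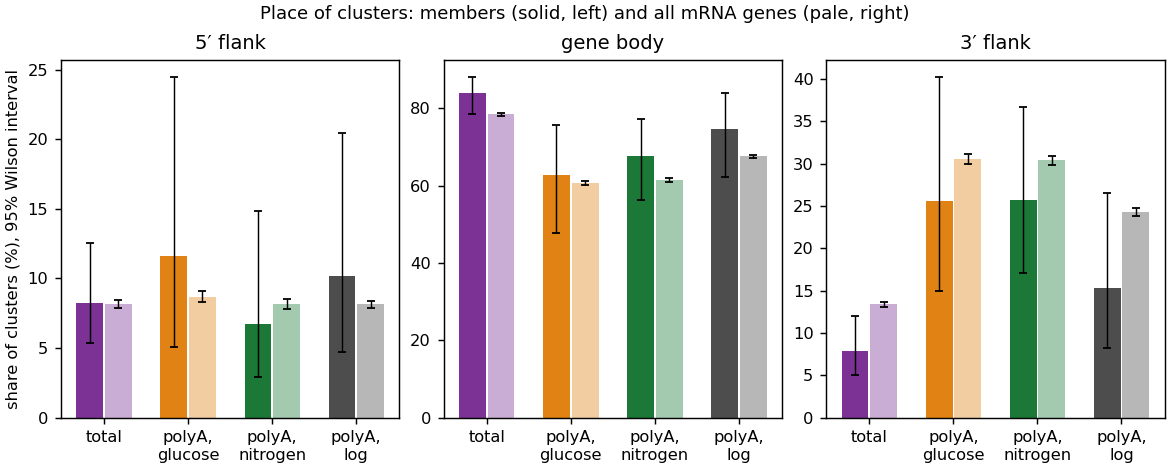
Share of clusters (vertical axes, percent, Wilson 95% intervals) in the upstream flank, the gene body and the downstream flank for the 10 genes (solid bars) and all mRNA genes (pale bars) in light total RNA and in polyA RNA after glucose starvation, after nitrogen starvation and in log phase. In the downstream flank the 10 genes hold 7.83%, 25.6%, 25.7% and 15.3%.

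Nitrogen starvation was compared with log phase within polyA RNA. The 10 genes took a larger part of the nitrogen list, led by ARO8 and ARO3. They held 74 clusters after nitrogen starvation, 0.190% of the list (0.151 to 0.239), against 59 or 0.0967% in log phase (0.0750 to 0.125), a ratio per list of 1.97 (1.38 to 2.82). The median log2 ratio of covered length was 0.89, and 0.15 over 5634 mRNA genes, with all 10 genes above this second value. At least 2-fold higher were 4 of the 10 (ARO3, ARO8, TRP4 and TRP5), where 7.22% of mRNA genes were, and 0 were at least 2-fold lower, where 2.86% were. Measured against the median of all mRNA genes, 2 of the 10 reached 2-fold higher, where 4.79% of mRNA genes did. In absolute number the clusters increased less than in share, because the nitrogen list is the shorter one.

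ARO8 held 18 clusters over 245 nt after nitrogen starvation and 12 over 122 nt in log phase, a count ratio of 2.35 (1.07 to 5.35) and a log2 ratio of 1.49. It was the one gene of the 10 whose count interval excluded 1, where 1.67% of mRNA genes had such an interval. ARO3 held 12 clusters over 126 nt after nitrogen starvation and 7 over 66 nt in log phase (2.69; 0.975 to 8.06), with a log2 ratio of 1.36. ARO4 held 11 clusters after nitrogen starvation and 8 in log phase, with a log2 ratio of 0.84. TRP4 held 5 and 4 clusters over 67 and 42 nt after nitrogen starvation and in log phase, a log2 ratio of 1.08, and TRP5 held 6 and 5 over 82 and 50 nt, a log2 ratio of 1.14. Both genes thus had 1 cluster more than in log phase. TRP3 held 6 clusters after nitrogen starvation and 5 in log phase (log2 ratio 0.94), TRP2 6 and 6 (0.76), ARO2 3 and 2 (0.72), ARO7 3 and 5 (0.30) and ARO1 4 and 5 (0.22).

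Of the 74 nitrogen clusters, 44 overlapped one of log phase (59.5%; 48.1 to 69.9), while 73.3% of nitrogen clusters on all mRNA genes did. Of the 59 log-phase clusters, 43 overlapped one of nitrogen starvation (72.9%; 60.4 to 82.6), while 48.2% on all mRNA genes did. The 30 nitrogen clusters with no log-phase partner lay on 9 genes, 7 on ARO3, 6 on ARO8, 4 on ARO4 and 3 each on TRP3 and TRP4. Those on ARO8 of at least 10 nt, and the widest on ARO3, are printed with each T in capitals, since these genes had the largest log2 ratios.

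ARO8, chrVII:116207-116216, plus strand, coding base 149: TcccaTggga
ARO8, chrVII:116242-116256, plus strand, coding base 184: ccTccTTTTccccag
ARO8, chrVII:116468-116482, plus strand, coding base 410: ccacTgcaggTaaca
ARO8, chrVII:117176-117199, plus strand, coding base 1118: acTgTgccaTcgaTgcccTTTaca
ARO8, chrVII:117627-117640, plus strand, 66 nt after the stop codon: TaaaTTTcgaagTa
ARO3, chrIV:522932-522953, plus strand, 4 nt after the stop codon: gTaaaTgagggaaaaaTgcaaa

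Each of these, chosen by width, holds G. Of all 30 nitrogen clusters without a log-phase partner, 6 held none (20.0%; 9.51 to 37.3), against 49.5% of such clusters over all mRNA genes. The nitrogen clusters of the 10 genes as a whole held more G than those of all mRNA genes. They contained 10.8% G, against 6.33% in log phase on the same genes, and 6.03% in nitrogen starvation over all mRNA genes. Without any G were 25 of 74 nitrogen clusters (33.8%; 24.0 to 45.1) and 33 of 59 in log phase (55.9%; 43.3 to 67.8), whereas over all mRNA genes the shares were 59.1% after nitrogen starvation and 53.7% in log phase. Leaving out any single gene kept the G content of the nitrogen clusters between 10.01% and 11.5%. It was 16.1% in the 30 clusters without a log-phase partner and 7.33% in the 44 with one. Over all mRNA genes, nitrogen clusters without a partner also held more G, 9.13%, than those with one, 4.96%.

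The downstream flanks held 19 of 74 clusters after nitrogen starvation (25.7%) and 9 of 59 in log phase (15.3%), a ratio per list of 3.31 (1.43 to 8.31), where all mRNA genes gave 1.28. In gene bodies the ratio was 1.78 (1.16 to 2.73), where all mRNA genes gave 0.933. The intervals of the downstream and body ratios overlap. So do those of the downstream shares, 17.1 to 36.7 after nitrogen starvation and 8.24 to 26.5 in log phase. Over all mRNA genes the downstream share also rose, from 24.3% in log phase to 30.4% after nitrogen starvation. Each of these lies within the interval of the aromatic genes in the same list. ARO3 held 5 of the 19 downstream clusters after nitrogen starvation and ARO8 held 4.

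Glucose starvation was compared with the same log-phase list, so both starvation comparisons share their denominator. The 10 genes held 43 clusters after glucose starvation, 0.129% of the list (0.0958 to 0.174), against 59 or 0.0967% in log phase, a ratio of 1.33 (0.879 to 2.01). The median log2 ratio of covered length was 0.60, and 0.26 over 5611 mRNA genes. At least 2-fold higher was 1 of the 10, where 8.86% of mRNA genes were, and 0 were at least 2-fold lower, where 2.55% were. No count interval of the 10 excluded 1, where 1.3% of those of mRNA genes did. A difference from log phase was not detectable at this number of clusters.

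The gene past 2-fold was ARO2, with a log2 ratio of 1.35, and it rested on a single wide cluster. That cluster spanned 43 nt after glucose starvation, while log phase had 2 clusters over 23 nt, and the count ratio was 0.915 (0.0155 to 17.6). It is printed because the value turns on it.

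ARO2, chrVII:227338-227380, plus strand, coding base 940: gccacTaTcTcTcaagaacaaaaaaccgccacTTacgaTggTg

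TRP4 was the one gene with no cluster after glucose starvation, against 4 over 42 nt in log phase. A count of 0 allows up to 3 clusters in the glucose list, and the interval of the ratio reached up to 2.77, so absence cannot be told from this list. TRP3 held 1 cluster after glucose starvation and 5 in log phase (0.366; 0.00774 to 3.27), and ARO1 held 2 and 5 (0.732; 0.0697 to 4.47). ARO4 held 9 and 8 clusters (2.06; 0.705 to 6.13), ARO8 10 and 12 (1.53; 0.590 to 3.85), ARO3 6 and 7 (1.57; 0.436 to 5.45), TRP2 5 and 6 (1.53; 0.368 to 6.00), TRP5 5 and 5 (1.83; 0.421 to 7.95) and ARO7 4 and 5 (1.46; 0.291 to 6.80). The highest count ratio, that of ARO4, and the lowest above 0, that of TRP3, both lay within counting error of 1. Of the 43 clusters, 31 overlapped one of log phase (72.1%; 57.3 to 83.3), where 74.3% of glucose clusters on all mRNA genes did.

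Sites present in both starvations and with no overlapping log-phase cluster numbered 4, on ARO3, ARO4 and TRP5. Of the 43 glucose clusters, 6 overlapped a nitrogen cluster and none of log phase (14.0%; 6.56 to 27.3), where 9.18% of glucose clusters on all mRNA genes did. The site on ARO4 is printed, with the bases common to both starvation lists in capitals, as the one with the longest common part.

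ARO4, chrII:717456-717471, minus strand, coding base 524: gtgcCATTGGTGCCAG

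A list of 14 other genes around the pathway held the remaining synthesis steps (TYR1, PHA2, TRP1), the breakdown enzymes ARO9 and ARO10 with their activator ARO80, GCN4, the permeases TAT1 and TAT2, the aminoacyl-tRNA synthetases WRS1, TYS1, FRS1 and FRS2, and BNA2, the first enzyme of the kynurenine route. In total over polyA RNA its median log2 ratio was 0.25, with 1 of 14 at least 2-fold higher and 1 lower, and its count ratio 1.41 (1.07 to 1.86). In nitrogen starvation over log phase the median was 0.28, with 1 higher and 2 lower, and the count ratio 1.02 (0.734 to 1.41). After glucose starvation the median was 0.67, with 2 higher and 0 lower, and the count ratio 1.32 (0.960 to 1.80). The interval of the 14 and that of the 10 did not overlap for total over polyA RNA, overlapped narrowly for nitrogen starvation and widely for glucose starvation. Both intervals cover counting error only and leave out the spread between genes.

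Among the 14, the permease gene TAT1, whose product imports tyrosine and tryptophan, held 1 cluster after nitrogen starvation and 13 in log phase, a ratio of 0.121 (0.00284 to 0.803). The aminotransferase gene ARO9, which acts in breakdown where ARO8 acts in synthesis, held 1 cluster after nitrogen starvation and 8 in log phase (0.196; 0.00442 to 1.46). ARO8, with 18 and 12, went the other way, although the interval of ARO9 includes 1. TYS1, tyrosyl-tRNA synthetase, was at least 2-fold higher in all 3 comparisons, with 10 clusters in total RNA, 8 after glucose starvation, 10 after nitrogen starvation and 5 in log-phase polyA RNA. Its count intervals all included 1. TRP1, the remaining tryptophan gene, held 1 cluster after nitrogen starvation and 4 in log phase, with 33 nt covered against 26 nt, a log2 ratio of 0.80. ARO10, a decarboxylase gene, held 1 cluster in total RNA and 5 in polyA RNA (0.237; 0.00500 to 2.12). TAT2 held 20 and 12 in total and polyA RNA (1.97; 0.918 to 4.43), and TAT1 18 and 13 (1.64; 0.759 to 3.64). After glucose starvation ARO9 held 7 clusters over 98 nt against 8 over 74 nt in log phase. Its log2 ratio was 1.13, at least 2-fold higher, and its count ratio 1.60 (0.494 to 5.05). FRS1 held 8 clusters after glucose starvation against 7 in log phase (log2 ratio 0.79) and ARO80 2 against 3 (0.73). GCN4, named for its role and after its values were seen, held 24 clusters in total RNA, 11 after glucose starvation, 16 after nitrogen starvation and 19 in log-phase polyA RNA.

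Genes that make other amino acids were described in the same way. For total over polyA RNA the count ratio was 5.29 (4.09 to 6.93) for 10 arginine genes, 2.67 (2.11 to 3.39) for 10 branched-chain genes and 2.97 (2.27 to 3.90) for 13 histidine and lysine genes, beside 4.61 for the aromatic genes. At least 2-fold higher were 7 of 10, 5 of 10 and 9 of 13 in that order of lists. For nitrogen starvation the ratios were 3.16 (2.36 to 4.25), 2.36 (1.83 to 3.05) and 1.94 (1.43 to 2.65), beside 1.97 for the aromatic genes, and 7 of 10, 5 of 10 and 6 of 13 genes were at least 2-fold higher. For glucose starvation they were 0.839 (0.538 to 1.28), 1.15 (0.833 to 1.58) and 1.18 (0.814 to 1.70), all with intervals that include 1. In nitrogen starvation the aromatic genes thus had the second lowest of these 4 ratios, and in total RNA the second highest, with intervals that overlap those of their neighbours in the order. These comparisons share lists, and nothing particular to the aromatic genes among amino acid genes can be read from them.

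**Figure D5:**
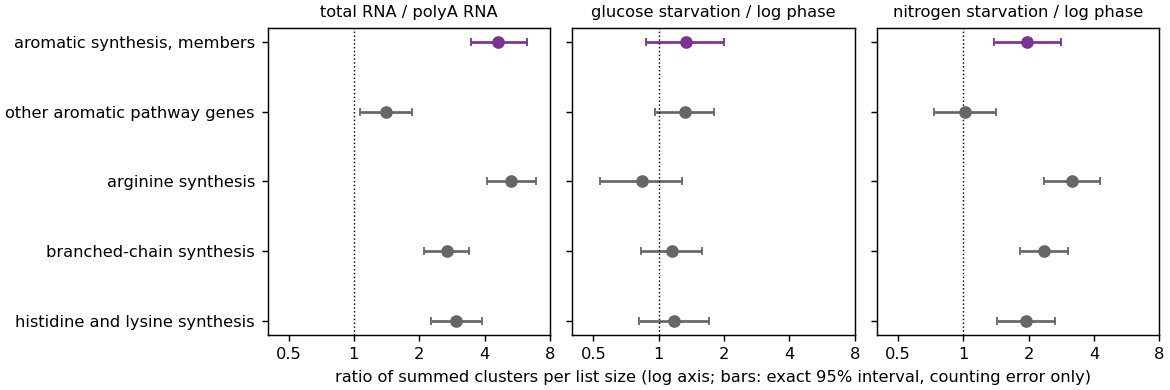
Ratio of summed clusters per list size (horizontal log axis, exact 95% intervals for counting error only, dotted line at 1) for the 10 aromatic synthesis genes, 14 other aromatic pathway genes and 3 lists of other amino acid synthesis genes in the 3 comparisons. The 10 genes stand at 4.61, 1.33 and 1.97 for total over polyA RNA, glucose starvation and nitrogen starvation.

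The mean profile of the 10 genes over the 4 lists, as log2 covered length per list centred on each gene's own mean, was 0.97 in total RNA, -0.27 after glucose starvation, 0.09 after nitrogen starvation and -0.79 in log-phase polyA RNA. Among 2680 mRNA genes with at least 20 clusters over the 4 lists, the 5 with the nearest profile were LYS20, BDF1, MCR1, LSC2 and LST8, at Euclidean distances of 0.0357, 0.157, 0.172, 0.193 and 0.206. LYS20, homocitrate synthase of the lysine route, held 19 clusters in total RNA, 6 after glucose starvation, 8 after nitrogen starvation and 7 in log-phase polyA RNA. The likeness is over 4 lists and is a description.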

How the data were processed

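The submitters' processing notes name Bowtie 0.12.7 and build R64. The sources used here do not say how clusters were called. The authors deposited start and end coordinates per cluster, with 1 list for both replicates of a group. Coordinates were read as 0-based starts and are printed 1-based. Clusters were assigned by at least 1 nt on their own strand to the RefSeq annotation of R64, with gene bodies before flanks. Covered length per 100000 nt of list was compared after adding 20 nt, over all mRNA genes with a cluster in either list, and called at 2-fold. Count ratios have exact conditional binomial (Clopper-Pearson) 95% intervals and shares have Wilson intervals. The ratio and its interval were run on simulated counts with a fixed cluster width, so the spread of real widths was not covered. The genes, lists and alternatives were chosen with earlier results of these data known. Apart from the 10 genes, up to 4 other pathway genes per comparison were named, those with the largest absolute log2 ratio and no fewer than 3 clusters in one of both lists. The 5 genes of nearest profile were also named, as was GCN4, outside this rule. Sequences come from the R64 reference. Alternatives covered gene ends, overlap, added length, scale, cluster width, cluster number and strand. Python 3.11.15, numpy 2.4.6, scipy 1.17.1 and pandas 2.3.3 were used.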

Additional observations from a re-analysis of the deposited data

How the results depend on the processing

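No paired analysis was possible because both replicates of a group share 1 deposited list. Under the alternatives tried, no called value changed sign. Below the 2-fold call, log2 ratios of glucose starvation over log phase changed sign for ARO1 (-0.01 with gene bodies alone, -0.13 with cluster counts, -0.06 centred; 0.20 as reported), TRP3 (-0.04 with 5 nt added, -0.71 with cluster counts, -0.07 centred; 0.19 as reported) and ARO7 (-0.07 with either strand; 0.55 as reported). The median log2 ratio of the 10 genes for total over polyA RNA, 1.94 as reported, was 1.51 with 50 nt added, 1.65 when scaled to clustered sequence on mRNA, 1.78 without clusters narrower than 10 nt and 1.61 with either strand counted. The number of genes at least 2-fold higher after glucose starvation, 1 as reported, was 2 without clusters narrower than 10 nt and 0 where 3 clusters in one of both lists were required. After nitrogen starvation it was 4 as reported, 6 both with gene bodies alone and with shorter flanks (50 nt before and 100 nt after the gene), 5 with 5 nt added, and 2 both with 50 nt added and, in an alternative chosen after seeing the data, when centred on the median of all mRNA genes. The number at least 2-fold lower, 0 as reported, was 1 after glucose starvation with 5 nt added, with cluster counts in place of covered length and when centred, and 1 for total over polyA RNA with either strand counted. The cause was not tested. The count ratio of the 10 genes ran from 3.64 to 5.30 for total over polyA RNA, from 1.12 to 1.39 for glucose starvation and from 1.78 to 2.17 for nitrogen starvation, where the lowest value for total over polyA RNA leaves out ARO1, also chosen after seeing the data. With an overlap over at least 50% of the cluster required, the share of total RNA clusters that overlapped a log-phase polyA cluster was 7.39% in place of 11.7%. Most genes held fewer than 10 clusters in a polyA list, which limits what single genes can show.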
